A study of Mus musculus with 6 samples.

Results

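Expression of 10 genes of the TREM2-dependent programme of disease-associated microglia (Trem2, Tyrobp, Cst7, Itgax, Clec7a, Gpnmb, Spp1, Lgals3, Cd9 and Cd63) was examined in cells sorted from mouse retina. They were taken by symbol from a table of 21851 genes, and all 10 were found and tested. The samples were 6 RNA-seq libraries, 3 with the genotype label CD36 flox and 3 with CD36 CKO, a conditional knockout of the lipid scavenger receptor gene Cd36. Each library came from cells of intermediate CD11b and positive CD45 staining, the microglial gate, and held 13462683 to 20018910 counts. The protocol also gives an intravenous injection of NaIO3, an oxidant toxic to the retinal pigment epithelium, at 20 mg/kg or of buffer, with collection after 7 days, but no label says which libraries received it. The Cre driver, strain, age and sex of the mice are not stated in the labels used here, and the extraction text calls the controls wildtype where the genotype label says flox. The sample codes (WT1, WT3, CKO2 and CKO5, each with OD or OS) give flox 2 and flox 3 the same number, as they do CKO 2 and CKO 3. Such a pair can be the right and left eye of 1 mouse, so that p-values over 3 against 3 libraries may measure differences between eyes rather than animals.

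TREM2 is a surface receptor for lipids and lipoproteins on microglia and other macrophages. It has no signalling tail of its own and works through the adaptor TYROBP (DAP12), whose phosphorylated tyrosine motif recruits the kinase SYK. In mouse models of neurodegeneration, microglia near plaques or dying cells lose homeostatic transcripts and gain a set that includes the genes studied here. Tyrobp belongs to the early, TREM2-independent step of that change as first described, and Cst7, Itgax, Clec7a and Cd9 to the later step that needs TREM2.

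The promoters of 4 of the genes are shown because Spp1 and Gpnmb had close profiles over the libraries, while Trem2 and Itgax each had another. The sequences span 250 bases before to 50 bases after the annotated start and come from RefSeq (GRCm38.p6), which held entries for 9 of the 10 genes, all but Tyrobp. Capitals mark a match to either of the motifs TGANTCA, the AP-1 element, or GAGGAAGT, a PU.1 element, on either strand. The 4 windows are chr17:48346151-48346450 (plus strand) for Trem2, chr6:49036268-49036567 (plus) for Gpnmb, chr5:104434861-104435160 (plus) for Spp1 and chr7:128129300-128129599 (plus) for Itgax.
Trem2: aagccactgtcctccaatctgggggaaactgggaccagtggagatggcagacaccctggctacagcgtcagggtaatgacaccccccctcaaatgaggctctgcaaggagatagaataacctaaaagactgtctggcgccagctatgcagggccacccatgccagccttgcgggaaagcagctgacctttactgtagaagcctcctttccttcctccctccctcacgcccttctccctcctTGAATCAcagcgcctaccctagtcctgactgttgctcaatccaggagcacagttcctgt
Gpnmb: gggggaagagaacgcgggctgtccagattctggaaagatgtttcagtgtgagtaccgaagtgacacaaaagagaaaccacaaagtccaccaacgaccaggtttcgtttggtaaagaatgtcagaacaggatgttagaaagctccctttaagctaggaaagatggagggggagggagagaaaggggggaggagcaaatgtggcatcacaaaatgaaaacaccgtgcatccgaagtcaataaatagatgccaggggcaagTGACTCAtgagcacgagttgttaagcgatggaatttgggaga
Spp1: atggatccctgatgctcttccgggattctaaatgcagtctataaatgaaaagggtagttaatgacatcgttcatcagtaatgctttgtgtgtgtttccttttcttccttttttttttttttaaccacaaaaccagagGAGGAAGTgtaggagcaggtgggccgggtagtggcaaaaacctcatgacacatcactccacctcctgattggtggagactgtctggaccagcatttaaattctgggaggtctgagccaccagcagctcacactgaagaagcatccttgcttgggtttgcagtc
Itgax: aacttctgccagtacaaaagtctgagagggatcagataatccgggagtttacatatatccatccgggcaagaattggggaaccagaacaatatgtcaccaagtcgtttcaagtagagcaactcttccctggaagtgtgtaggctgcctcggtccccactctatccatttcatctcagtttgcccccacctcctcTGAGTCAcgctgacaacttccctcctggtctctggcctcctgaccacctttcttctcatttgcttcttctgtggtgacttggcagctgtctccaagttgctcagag

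TGANTCA occurred in the windows of Trem2, Cst7, Itgax and Gpnmb, starting at positions -9, -6, -56 and 9 from the transcription start, and in 7.81% of the 32851 promoter windows of the same length. GAGGAAGT occurred in the printed window of Spp1 at position -113 and in 3.20% of all windows. Another Spp1 entry, chr5:104435942-104436241 (plus), had no match to any motif searched. The E-box CATGTG, a core that MiT/TFE factors can bind, occurred in the window of Cd9 at position -38 and in 14.2% of all windows. The E-box CACGTG, which MiT/TFE factors also bind, had no match in the 11 windows of the 9 genes and one in 7.15% of all windows. No matches overlapped each other, and a match describes letters, not binding.

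Before the members, the libraries were checked. Cd36, the targeted gene, stood at 90.5, 193 and 144 CPM (counts scaled to a common library size, with TMM factors) across flox 1 to 3 and at 122, 65.2 and 28.5 CPM across CKO 1 to 3, so that the library labelled CKO 1 held more than the library labelled flox 1. Its log2 fold change was -0.98 (SE 0.51, adjusted p = 0.9996 by edgeR), so the genotype labels have no called difference in Cd36 behind them. Haemoglobin transcripts summed to 1759 to 4243 CPM in flox 2, flox 3 and CKO 1 and to 0.0837 to 0.339 CPM in flox 1, CKO 2 and CKO 3. These are called haemoglobin-positive and haemoglobin-negative libraries below. The log2 ratio of CKO over flox for Cd36 was -0.95 within the haemoglobin-negative and -0.46 within the haemoglobin-positive libraries, each with 1 library on one side. Libraries with a shared code number fell on the same side of the haemoglobin split, so haemoglobin status and code cannot be told apart within a genotype. If a code stands for 1 mouse, the same holds for haemoglobin status and mouse. Microglial markers were present in each library, with 7 genes summing to 2400, 6035 and 4675 CPM across flox 1 to 3 and to 2615, 4067 and 2920 CPM across CKO 1 to 3. In bulk libraries fewer cells of a type and less RNA per cell cannot be told apart.

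None of the 10 genes differed between CKO and flox beyond the spread between libraries. In edgeR's quasi-likelihood fit 0 of the 10 passed an adjusted p of 0.05 (Benjamini-Hochberg, over 13477 genes), and each had an adjusted p of 0.9996. The background was also 0.00% of genes tested. At an unadjusted p under 0.05 the count was 0 of 10 by edgeR, against 2.81% of all genes (1.45% higher and 1.37% lower in CKO). DESeq2 called 0 of 10, beside 0.150% of all genes, and limma-voom also called 0 of 10. The flox and CKO ranges overlapped for all 10 genes, so 0 had a range wholly higher and 0 wholly lower in CKO, against 3.88% and 4.12% of genes tested. Fold changes were positive for 6 genes (Trem2, Tyrobp, Cst7, Itgax, Lgals3 and Cd63) and negative for 4 (Clec7a, Gpnmb, Spp1 and Cd9), beside 50.6% and 49.4% of all genes, with a median log2 fold change of 0.12 beside 0.00374 over all genes. Only for Trem2, Tyrobp and Cd63 did the 95% interval stay within a log2 change of 1 in either direction.

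**Figure D1:**
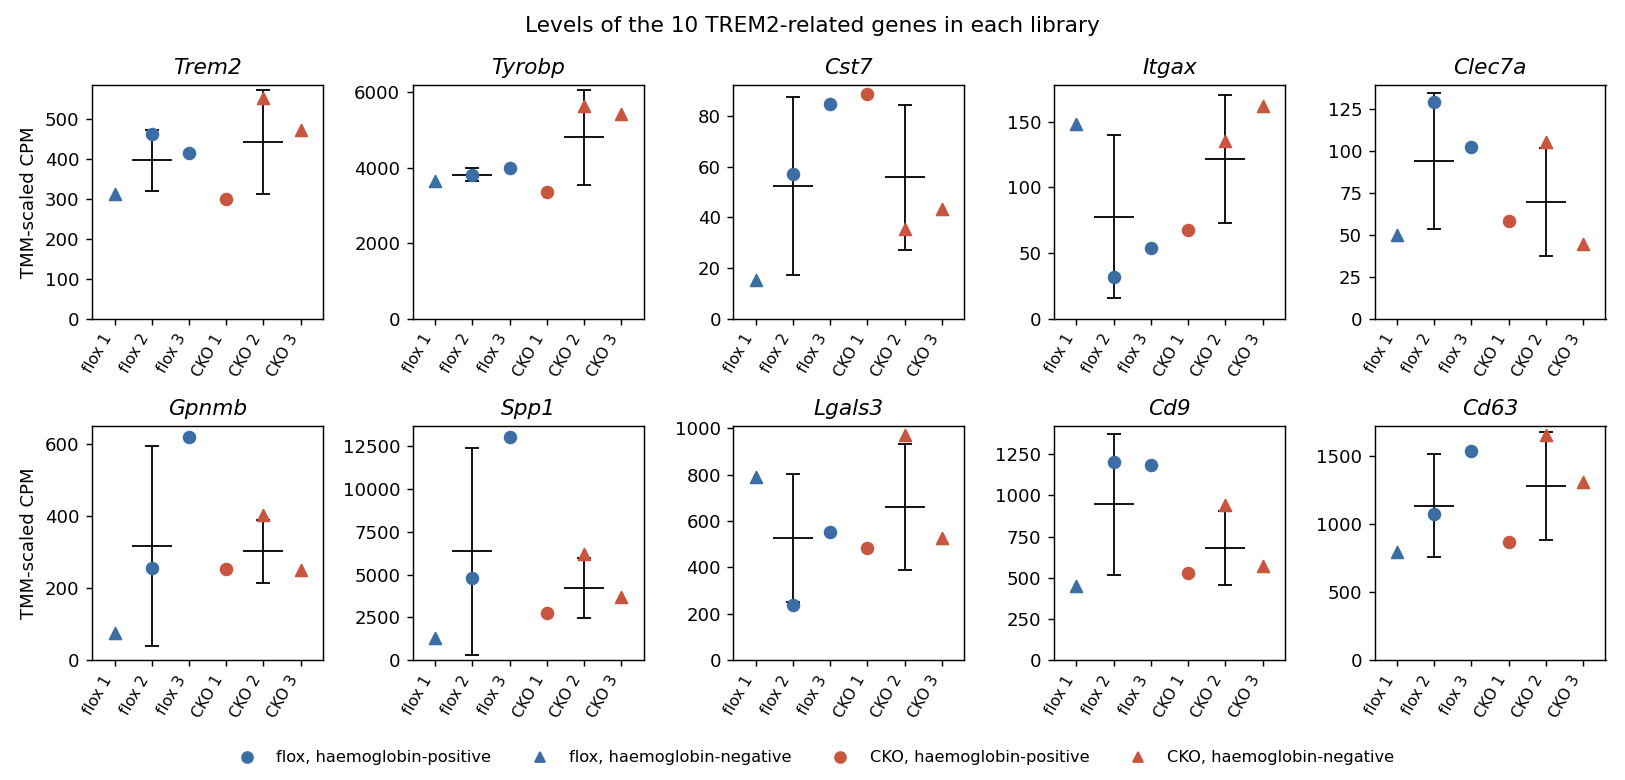
TMM-scaled CPM (y axis, from 0) of each of the 10 genes in the 6 libraries (x axis). Points are libraries, coloured by genotype label and shaped by haemoglobin status, and the bars are the group mean ± SD (n = 3 each). The flox and CKO points overlap in every panel, and flox 1 lies lowest for Cst7, Gpnmb, Spp1, Cd9 and Cd63.

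Trem2, the receptor gene (chromosome 17, 48346401 to 48354147, plus strand, GRCm38), stood at 313, 463 and 414 CPM across flox 1 to 3 and at 299, 553 and 473 CPM across CKO 1 to 3. The lowest and the highest library were both CKO, with all 3 flox libraries between them. The means were 397 ± 76.6 CPM in flox and 442 ± 130 in CKO (SD, n = 3), a log2 fold change of 0.15 (SE 0.26, 95% interval -0.43 to 0.74; unadjusted p = 0.562 by edgeR). Without CKO 2 the fold change was -0.04.

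Tyrobp, the adaptor gene (chromosome 7, 30413760 to 30417585), was far more abundant per length of transcript, and its flox libraries agreed closely. It stood at 3639, 3816 and 4001 CPM across flox 1 to 3 and at 3357, 5620 and 5423 CPM across CKO 1 to 3. CKO 1 lay under the flox range and the CKO 2 and CKO 3 libraries above it. The log2 fold change was 0.33 (SE 0.22, interval -0.18 to 0.84), with an unadjusted p of 0.172 by edgeR, the smallest among the 10 genes. It was 0.20 to 0.53 with each library left out, highest without CKO 1 (unadjusted p = 0.00919, adjusted p = 0.5638, edgeR), and 0.19 with haemoglobin status in the model. Expressed per length, as TPM (CPM divided by the principal transcript's length and rescaled to the same total in each library), Trem2 was 4.46% to 6.29% of Tyrobp in the 6 libraries.

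Genes of TREM2's partners, signal chain and shedding were listed too. By edgeR 0 of 23 tested were called, with 1 at an unadjusted p under 0.05 (2.81% over all genes). Of these 16 were positive and 7 negative, with a median log2 fold change of 0.15. The gene with the smallest p was Hcst, which encodes DAP10, the other adaptor that TREM2 can use. It stood at 32.3, 29.7 and 28.3 CPM across flox 1 to 3 and at 30.4, 56.4 and 63.0 CPM across CKO 1 to 3, a log2 fold change of 0.73 (SE 0.27; unadjusted p = 0.0264, edgeR). CKO 1 lay within the flox range and the libraries of the code CKO5 above it. Syk, the kinase recruited by TYROBP, stood at 27.0 to 31.1 CPM in flox and 32.5 to 44.9 CPM in CKO, with no overlap and a log2 fold change of 0.41 (SE 0.19; unadjusted p = 0.0613). Ms4a4a, a gene of the MS4A family linked to soluble TREM2 in humans, stood at 88.4 ± 26.2 against 130 ± 44.6 CPM.

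Among the other surface receptors, Clec7a encodes Dectin-1, a β-glucan receptor that also recruits SYK (chromosome 6, 129461591 to 129472779, minus strand). It stood at 49.6, 129 and 102 CPM across flox 1 to 3 and at 58.4, 105 and 44.5 CPM across CKO 1 to 3. High and low libraries occurred under both labels, and even the CKO5 pair differed by 2.37 times. Its log2 fold change was -0.43 (SE 0.42, interval -1.41 to 0.54; unadjusted p = 0.33, edgeR). It was -0.74 without flox 1, -0.13 without flox 2, -0.87 without CKO 2, -0.19 without CKO 3 and -0.20 with haemoglobin status in the model.

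Itgax encodes CD11c, the integrin chain that pairs with CD18 and marks both reactive microglia and dendritic cells (chromosome 7, 128129547 to 128150657, plus strand). It stood at 148, 32.0 and 53.7 CPM across flox 1 to 3 and at 67.5, 135 and 162 CPM across CKO 1 to 3. The 3 haemoglobin-negative libraries, flox 1 among them, held 135 to 162 CPM and the others 32.0 to 67.5 CPM, without overlap. Such a split, in either direction, occurred for 22.4% of all genes tested. Between the labels the log2 fold change was 0.64 (SE 0.57, interval -0.68 to 1.97; unadjusted p = 0.294, edgeR), with 0.01 within the haemoglobin-negative libraries, 0.65 within the haemoglobin-positive ones and 0.21 after summing libraries that share a code. Without flox 1 it was 1.50 (unadjusted p = 0.00711, adjusted p = 0.6784, edgeR), and without flox 2 0.27. Dendritic cell markers were highest in the same 3 libraries. The 9 genes came to 135, 88.4 and 55.2 CPM across flox 1 to 3 and 105, 156 and 155 CPM across CKO 1 to 3, with Clec9a at 0 in some libraries. Their part in the level of Itgax was not tested.

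The lists around these receptors held no called gene. Of 9 other genes in the C-type lectin pathway 7 were positive and 2 negative, and Clec4n, the Dectin-2 gene, averaged 64.5 ± 18.6 CPM against 154 ± 100.7 (log2 fold change 1.25, SE 0.44; unadjusted p = 0.0225, edgeR). Clec4e, the Mincle gene, stood at 7.27 ± 2.58 against 16.2 ± 11.6 CPM. Of 10 other integrin genes 5 were positive and 5 negative, and Itga5, the α5 chain, stood at 11.9 to 13.7 CPM in flox and 15.7 to 27.1 CPM in CKO (log2 fold change 0.71, SE 0.26; unadjusted p = 0.0238). Itga4 (63.4 ± 4.29 against 80.5 ± 10.8 CPM) and Itgal (58.6 ± 8.68 against 71.4 ± 3.16 CPM) also had ranges that did not overlap. Such ranges, wholly higher in CKO, are the 3.88% of genes given above.

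Spp1, the gene of the secreted protein osteopontin, varied most (chromosome 5, 104435118 to 104441050, plus strand). It stood at 1272, 4784 and 13047 CPM across flox 1 to 3 and at 2776, 6195 and 3716 CPM across CKO 1 to 3. The highest and the lowest library were both flox and lay 10.3 times apart, and all CKO values lay between them. The means were 6368 ± 6045 and 4229 ± 1766 CPM (SD, n = 3), a log2 fold change of -0.59 (SE 0.72, interval -2.28 to 1.10; unadjusted p = 0.441, edgeR). Its direction rested on flox 3: without that library it was 0.48, and with haemoglobin status in the model 0.14. The flox 2 and flox 3 libraries, which share a code, differed by 2.73 times. Exons of the annotated transcript Gm42793 overlap Spp1 on the same strand, so reads of both cannot be told apart.

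Receptors of osteopontin were less variable. Of 8 tested 5 were positive, 3 negative and 0 called by edgeR. At an unadjusted p under 0.05 there was 1 (Itga5, above), beside 2.81% of all genes. Cd44, the hyaluronan receptor that also binds osteopontin, stood at 118, 80.3 and 66.1 CPM across flox 1 to 3 and at 98.2, 131 and 147 CPM across CKO 1 to 3, a log2 fold change of 0.51 (SE 0.25; unadjusted p = 0.0785).

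Lgals3 encodes galectin-3, a lectin that binds β-galactosides and damaged lysosomes (chromosome 14, 47367751 to 47386160, plus strand). It stood at 788, 239 and 554 CPM across flox 1 to 3 and at 482, 972 and 525 CPM across CKO 1 to 3. Flox 1, low for most of the other members, was here above all but CKO 2. Its log2 fold change was 0.32 (SE 0.45, interval -0.71 to 1.36; unadjusted p = 0.488, edgeR), and it was -0.02 without flox 2 and -0.07 without CKO 2. Among 5 other galectin genes 4 were positive, 1 negative and 0 called, with Lgals1 at 547 ± 231 against 814 ± 138 CPM, Lgals3bp at 344 ± 16.7 against 462 ± 145 and Lgals8 at 43.1 ± 2.77 against 49.2 ± 17.6.

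Gpnmb, a transmembrane glycoprotein of melanosomes, lysosomes and lipid-laden macrophages (chromosome 6, 49036546 to 49070929, plus strand), had a profile close to that of Spp1. It stood at 75.4, 256 and 619 CPM across flox 1 to 3 and at 253, 401 and 250.5 CPM across CKO 1 to 3. Again flox 1 was lowest and flox 3 highest, with the CKO libraries between. Between the groups the log2 fold change was -0.07 (SE 0.64, interval -1.57 to 1.43; unadjusted p = 0.915, edgeR), and it was 0.87 without flox 3, 0.04 without CKO 1, 0.05 without CKO 3 and 0.66 with haemoglobin status in the model. Pigment epithelium, which also expresses Gpnmb, was not evenly present, as its 9 markers summed to 4.17, 53.7 and 272 CPM across flox 1 to 3 and to 4.35, 31.5 and 4.47 CPM across CKO 1 to 3. Rpe65, Lrat, Pmel, Tyrp1, Dct and Mlana were each at 0 in some libraries. The libraries with the lowest marker sums were flox 1, CKO 1 and CKO 3, whose Gpnmb levels were 75.4, 253 and 250.5 CPM. The markers' part in the level of Gpnmb was not tested.

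The MiT/TFE factors, which drive Gpnmb and lysosomal genes, were low. All 4 genes had a positive fold change and 0 was called, with 1 at an unadjusted p under 0.05 (2.81% over all genes). That gene was Tfec, the member most restricted to macrophages, at 1.94, 2.64 and 2.66 CPM across flox 1 to 3 and 3.56, 9.46 and 7.61 CPM across CKO 1 to 3 (log2 fold change 1.51, SE 0.48; unadjusted p = 0.0131, edgeR). Tfe3 stood at 29.9 ± 3.63 against 35.6 ± 9.11 CPM and Tfeb at 10.4 ± 2.16 against 11.4 ± 2.96 CPM. Of 15 lysosomal targets of these factors 9 were positive, 6 negative and 0 called, among them Mcoln1, a lysosomal calcium channel gene (24.9 ± 4.80 against 30.3 ± 3.44 CPM), and Neu1, a sialidase gene (46.5 ± 4.37 against 54.1 ± 10.8 CPM).

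Cst7 encodes cystatin F, an inhibitor of cysteine cathepsins inside endosomes and lysosomes (chromosome 2, 150570415 to 150578944, plus strand). It stood at 15.4, 57.1 and 84.9 CPM across flox 1 to 3 and at 88.6, 35.4 and 43.4 CPM across CKO 1 to 3. The haemoglobin-positive libraries held 57.1 to 88.6 CPM and the others 15.4 to 43.4 CPM, the reverse of Itgax. A split without overlap, in either direction, occurred for 22.4% of all genes tested. CKO over flox gave a log2 fold change of 0.09 (SE 0.59, interval -1.30 to 1.48; unadjusted p = 0.881, edgeR). It was 1.36 within the haemoglobin-negative and 0.32 within the haemoglobin-positive libraries, and -0.35 without flox 1, 0.62 without flox 3 and -0.41 without CKO 1. With haemoglobin status in the model it was 0.83 (SE 0.29; unadjusted p = 0.0207, adjusted p = 0.9991, edgeR). Of 10 other cystatin and cathepsin genes 6 were positive, 4 negative and 0 called, among them the broad inhibitor gene Cst3 at 5733 ± 265 against 6686 ± 1174 CPM and Ctsl, the cathepsin L gene, at 558 ± 214 against 392 ± 113. Cst6 was under the limit that a count of 0 allows (0.150 to 0.223 CPM) in flox 1 and flox 2 and above it in the other libraries, at 0, 0.0518 and 0.822 CPM across flox 1 to 3 and 2.15, 1.0 and 1.75 CPM across CKO 1 to 3.

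The tetraspanins Cd9 and Cd63 organise receptors in the surface and endosomal membranes. Cd9 (chromosome 6, 125460266 to 125494791, minus strand) stood at 453, 1204 and 1182 CPM across flox 1 to 3 and at 532, 939 and 569 CPM across CKO 1 to 3. The pair flox 2 and flox 3 agreed within 1.02 times and lay above every CKO library, but flox 1 lay below them all. The log2 fold change was -0.48 (SE 0.39, interval -1.40 to 0.44; unadjusted p = 0.264, edgeR). Without flox 1 it was -0.81 (unadjusted p = 0.0203, adjusted p = 0.7436, edgeR), without flox 2 -0.27, without flox 3 -0.28 and without CKO 2 -0.78. With haemoglobin status in the model it was -0.21. An exon of Gm26728 overlaps Cd9 on the opposite strand, so without a stated strand setting their reads cannot be separated.

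Cd63 (chromosome 10, 128900989 to 128912822, plus strand) stood at 793, 1074 and 1539 CPM across flox 1 to 3 and at 866, 1656 and 1310 CPM across CKO 1 to 3. Here both groups held low and high libraries, and the log2 fold change was 0.17 (SE 0.31, interval -0.53 to 0.87; unadjusted p = 0.594, edgeR). Without flox 1 it was -0.03 and without CKO 2 -0.07. Among 16 other tetraspanins 8 were positive, 8 negative and 0 called. Cd82 stood at 99.7 ± 17.8 against 144 ± 34.7 CPM, Cd37 at 97.8 ± 55.2 against 54.4 ± 18.5 and Cd81 at 1309 ± 523 against 896 ± 155.

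**Figure D2:**
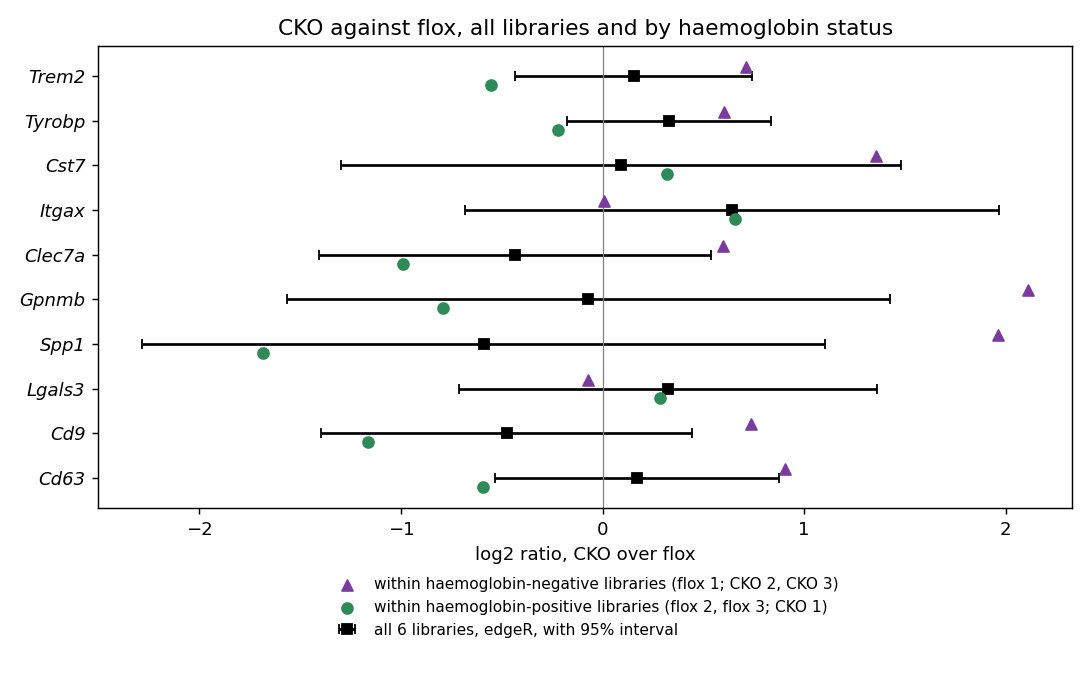
Log2 ratio of CKO over flox (x axis) for each gene (y axis). Squares are edgeR fold changes over 6 libraries with 95% intervals, all of which include 0; triangles and circles are ratios of mean CPM within the haemoglobin-negative and haemoglobin-positive libraries, which lie on opposite sides of 0 for 8 genes.

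Between genes, levels were compared per length of transcript. Tyrobp was the 8th most abundant of 19772 genes by mean TPM (10290 ± 738 TPM in flox and 11181 ± 2424 in CKO) and ranked first of the 10 in every library but flox 3, where Spp1 did. Spp1 ranked 22nd overall at 6518 ± 6324 and 3664 ± 1323 TPM. Below these came Cd63 (1563 ± 559 and 1509 ± 387 TPM) and Cd9 (1175 ± 541 and 726 ± 200.0), which are apart in mean but overlap in range, from 1068 to 2170 TPM and from 550 to 1505 TPM. Lgals3 (564 ± 291 and 608 ± 216 TPM) and Trem2 (554 ± 110 and 532 ± 130) did not differ beyond their spread. Clec7a (202 ± 87.2 and 129 ± 52.9 TPM), Gpnmb (132 ± 118 and 107 ± 25.0), Cst7 (81.6 ± 55.8 and 76.6 ± 43.8) and Itgax (29.1 ± 22.6 and 39.4 ± 14.8) followed, each overlapping its neighbour, while the lowest Trem2 value (387 TPM) lay above the highest of Clec7a (274 TPM).

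Direction depended on which libraries were set against each other. Within the haemoglobin-negative libraries (flox 1 against CKO 2 and CKO 3) the log2 ratio of CKO over flox was 2.11 for Gpnmb, 1.96 for Spp1, 0.90 for Cd63, 0.74 for Cd9, 0.71 for Trem2 and 0.60 for both Tyrobp and Clec7a. Within the haemoglobin-positive libraries (CKO 1 against flox 2 and flox 3) the same 7 genes were at -0.79, -1.68, -0.59, -1.17, -0.55, -0.22 and -0.99. Such a positive and then negative pair occurred for 28.2% of all genes tested, and signs were opposite in 8 of the 10 genes against 53.8% of all genes. Lgals3 was the 8th, at -0.07 and 0.28. Each of these ratios rests on 1 library on one side, so it has no replicate check. Ranges of the haemoglobin-positive and haemoglobin-negative libraries did not overlap for 2 of the 10 (Cst7 and Itgax), beside 22.4% of all genes.

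Several of the 10 genes had similar profiles over the libraries. Likeness was measured as the root-mean-square difference of log2 CPM, after centring each gene on its mean over the 6 libraries, which share the sort and may share animals within a code, and are too few for more than a description. The closest pairs were Trem2 and Tyrobp (0.17), Clec7a and Cd9 (0.20), Trem2 and Cd63 (0.21), Tyrobp and Cd63 (0.26) and Gpnmb and Spp1 (0.30). The Gpnmb and Spp1 pair is close for its width, as the range from lowest to highest library was 3.03 and 3.36 on the log2 scale against a median of 0.62 over 2846 genes at least as abundant as Cst7. Clec7a, Cd9 and the microglial marker sum all had flox 2, flox 3 and CKO 2 as their 3 highest libraries. The part of the microglial share in their levels was not tested.

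Among 8463 other genes of at least 10 CPM, the 3 with profiles nearest to Gpnmb were Fabp5, Timp2 and Ctsd (0.36, 0.40 and 0.48) and those nearest to Spp1 were Igf1, Timp2 and Fabp5 (0.43, 0.47 and 0.47). Fabp5 encodes a fatty acid binding protein, Timp2 a metalloprotease inhibitor, Ctsd the lysosomal protease cathepsin D and Igf1 a growth factor. All 4 stood on the lists of other disease-associated genes, to which 35 of the 8463 genes (0.414%) belonged. Those lists were chosen with earlier results of these data known. Gpnmb and Spp1 also have close profiles and share Fabp5 and Timp2, so the share is a description and not a test. Igf1 stood at 13.7, 96.0 and 250.0 CPM across flox 1 to 3 and at 60.1, 83.3 and 37.9 CPM across CKO 1 to 3, with flox 1 lowest and flox 3 highest as in Spp1. Fabp5 stood at 113, 178 and 488 CPM across flox 1 to 3 and at 202, 332 and 247 CPM across CKO 1 to 3. The genes nearest to Trem2 were Ptprj, a receptor phosphatase gene (0.0655), Stard9 (0.0748) and Frrs1 (0.0762), none of which was on those lists.

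**Figure D3:**
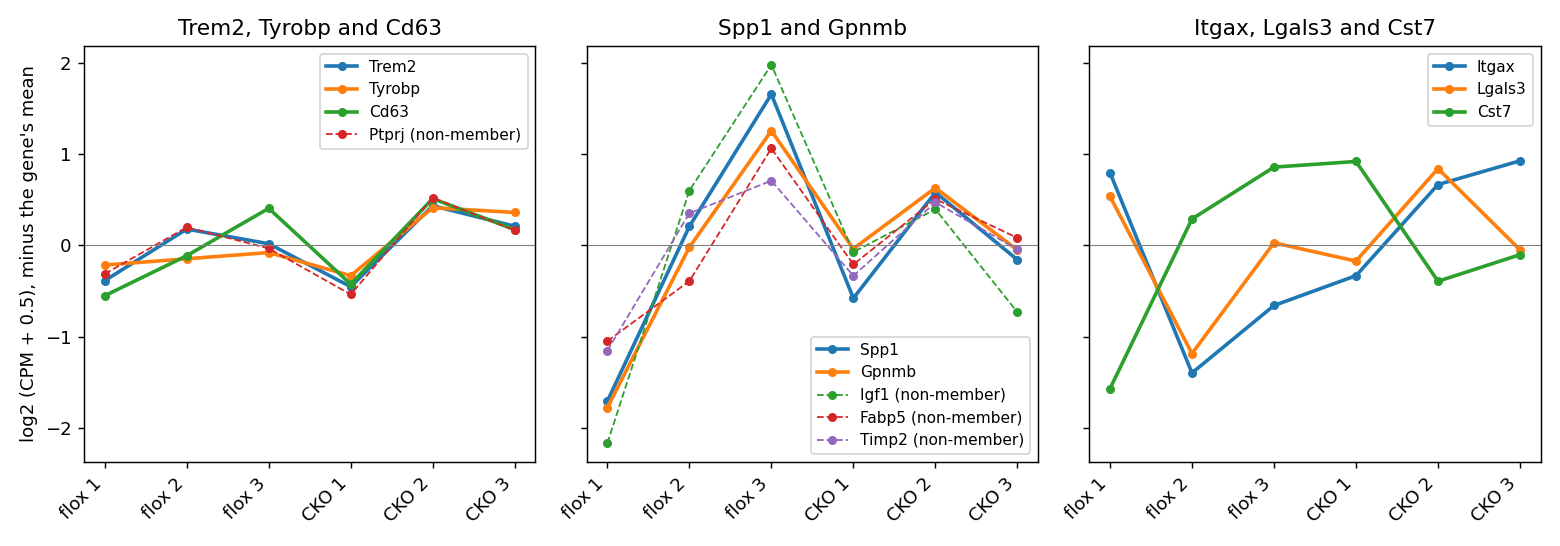
Log2 (CPM + 0.5) minus the gene's mean over libraries (y axis) in the 6 libraries (x axis). Solid lines are genes of the programme and dashed lines (non-members) are genes among the 3 nearest to Trem2, Gpnmb or Spp1. Spp1 and Gpnmb share a trough in flox 1 and a peak in flox 3 with Igf1, Fabp5 and Timp2. Cst7 is higher and Itgax lower in the haemoglobin-positive libraries, a split without overlap that 22.4% of all genes tested have in either direction.

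Other disease-associated genes were split by step. Of 13 genes put on the early list here, Timp2 among them, 10 were positive, 3 negative and 0 called by edgeR. At an unadjusted p under 0.05 there were 2, beside 2.81% of all genes, and the median log2 fold change was 0.26. Lyz2, the lysozyme gene, stood at 5438, 6632 and 6170 CPM across flox 1 to 3 and at 8978, 19890 and 9393 CPM across CKO 1 to 3, without overlap (log2 fold change 1.07, SE 0.32; unadjusted p = 0.00951, edgeR). Apoe, the lipoprotein gene whose product TREM2 binds, averaged 13521 ± 1885 against 27015 ± 13811 CPM (log2 fold change 1.0; unadjusted p = 0.0305, edgeR). Its CKO 1 library (12603 CPM) lay within the flox range, and the libraries of the code CKO5 above it (40135 and 28306 CPM). The log2 ratio of CKO over flox for Apoe was 1.14 within the haemoglobin-negative libraries and 0.01 within the haemoglobin-positive ones. Cd74, the class II invariant chain gene, averaged 5666 ± 3304 against 11597 ± 6908 CPM. For Cd74 too, CKO 1 (4486 CPM) lay within the flox range and the libraries of the code CKO5 above it. Of 27 tested genes on the later list 10 were positive, 17 negative and 0 called, with a median of -0.26. At an unadjusted p under 0.05 there were 2, beside the same 2.81% of all genes. Those were Ch25h, an oxysterol enzyme gene with a log2 fold change of -1.34 (SE 0.29; unadjusted p = 0.00164, edgeR), and Lpl, the lipoprotein lipase gene, at -1.01 (SE 0.42; unadjusted p = 0.0457). Homeostatic genes were positive in 5 and negative in 12 of 17, with 0 called and a median of -0.66. At an unadjusted p under 0.05 there were 2, beside the same 2.81% of all genes. Those were Cx3cr1, the fractalkine receptor gene, at 340 ± 128 against 143 ± 40.1 CPM without overlap (log2 fold change -1.25; unadjusted p = 0.00392, edgeR), and Sall1, a microglial identity factor gene, at -2.95 (unadjusted p = 0.0137), with flox 1 at 0.969 CPM, below every CKO library. Slc2a5, a microglial fructose transporter gene, stood at 1.69, 18.9 and 9.29 CPM across flox 1 to 3. It was at 3.37, 3.52 and 1.23 CPM across CKO 1 to 3, so that flox 1 lay among the CKO libraries. Summed, the 17 homeostatic genes held 9418, 15447 and 12852 CPM across flox 1 to 3. Across CKO 1 to 3 they held 9581, 13654 and 12200 CPM, so that flox 1 was lowest of all. The log2 ratio of CKO over flox of this sum was 0.46 within the haemoglobin-negative and -0.56 within the haemoglobin-positive libraries. For single genes the ratios, in the same order, were 1.43 and 0.49 for Lyz2, -1.34 and -1.09 for Ch25h and -1.14 and -0.49 for Lpl. Cx3cr1 was at -0.56 and -1.62, and Sall1 at 0.805 and -3.88. Each of these ratios rests on 1 library on one side.

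**Figure D4:**
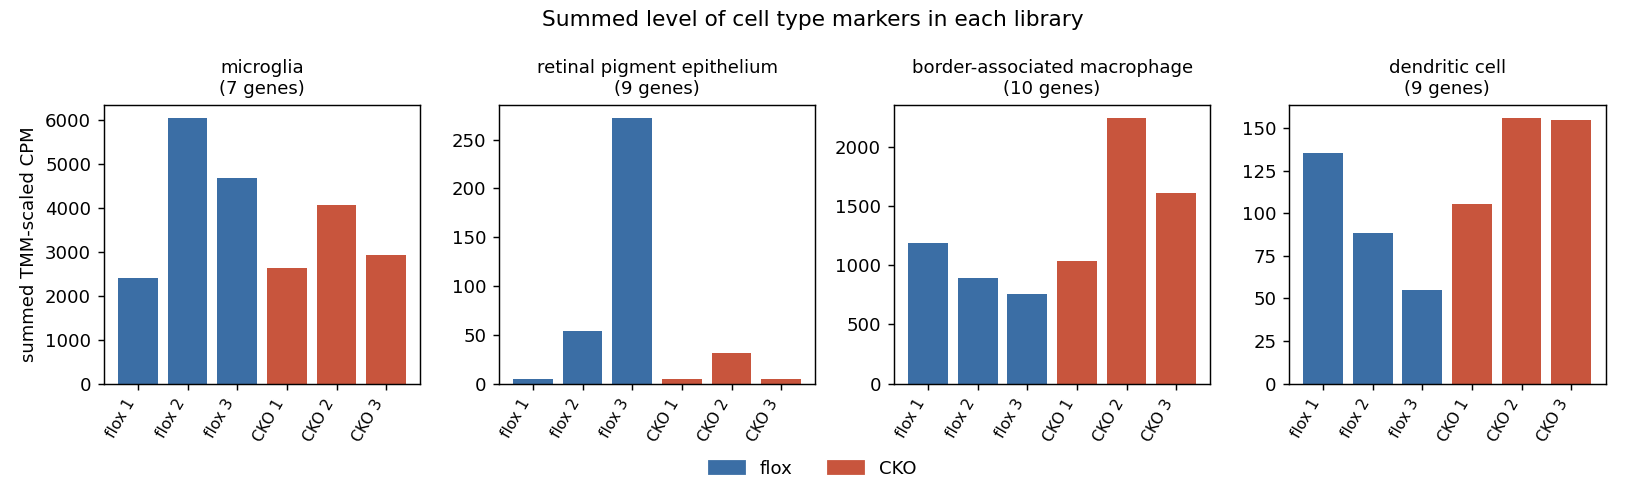
Summed TMM-scaled CPM (y axis, from 0) of markers of 4 cell types in the 6 libraries (x axis), coloured by genotype label. Microglial markers are highest in flox 2, pigment epithelium markers in flox 3, and border-associated macrophage and dendritic cell markers in CKO 2.

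Markers of other cells varied as well, including retinal cells that a sort on CD11b and CD45 is set to leave out. Border-associated macrophage markers (10 genes) summed to 756 to 1189 CPM in flox and 1038 to 2249 CPM in CKO, and monocyte markers (12 genes) to 847 to 1208 and 998 to 1480 CPM, each with none of the genes at 0 in any library. Of the monocyte genes 9 were positive and 3 negative, with 0 called by edgeR and a median log2 fold change of 0.87. At an unadjusted p under 0.05 there were 4 of 12, beside 2.81% of all genes. Of the border-associated macrophage genes 5 were positive, 5 negative and 1 at an unadjusted p under 0.05. Retinal ganglion cell markers (9 genes), from cells that express Spp1, summed to 30.5 to 63.4 and 38.9 to 53.2 CPM, with Pou4f1, Pou4f2, Nefm and Slc17a6 at 0 in some libraries. Platelet markers (6 genes), from cells that express Cd9, summed to 100 to 228 and 81.0 to 268 CPM, with Ppbp, Gp9 and Treml1 at 0 in some libraries. Neutrophil markers (9 genes) summed to 29.5 to 217 and 10.1 to 171 CPM, with Camp and Ngp at 0 throughout. Müller glia and astrocyte markers (9 genes) summed to 759 to 1459 and 1151 to 2671 CPM, and vascular markers (10 genes) to 265 to 489 and 195 to 709 CPM. All 9 Müller glia and astrocyte genes were positive, with 0 called, 0 at an unadjusted p under 0.05 and a median log2 fold change of 0.57. Rod markers (10 genes) summed to 7415 to 15936 and 6721 to 18630 CPM, and T, NK and B cell markers (11 genes) to 93.6 to 201 and 146 to 221 CPM. The part of these cells in the levels of the 10 genes, or of Lyz2, Apoe and the homeostatic genes, was not tested.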

How the data were processed

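The authors deposited estimated counts by gene symbol in a single unscaled table. Trimming with fastp 0.18.0 and alignment with HISAT2 2.2.4 to mm10 are named in the submitters' processing notes. How reads were counted, on which annotation and with which strand rule, is not given in the sources used here. Of 21956 rows, 83 without a symbol (0.0122% to 0.0185% of counts) were left out and 22 repeated-symbol rows were summed. Counts were rounded and tested with edgeR 4.0.16 (R 4.3.3): filterByExpr, TMM, a quasi-likelihood fit with robust dispersions and genotype alone as predictor, a prior count of 0.125 and Benjamini-Hochberg adjustment at 0.05. Intervals of fold changes are 95% and, like the floor of 3 counts (0.150 to 0.223 CPM), do not cover reads that are not independent molecules. CPM is TMM-scaled. Positions and transcript lengths are from GENCODE M21 (GRCm38), which held 90.5% of the symbols.

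The members and gene lists were chosen with earlier results of these data known. Named by rule were the 10 members, up to 3 non-members of smallest p per list, and 3 genes of nearest profile to Trem2, Gpnmb and Spp1, without predicted models and sex-linked genes. A gene that this rule selects is not reported here. Haemoglobin-positive libraries exceed 100 CPM. Alternatives were DESeq2 1.42.0, limma 3.58.1 (voom), other scalings and filters, a larger prior count, blocks, a haemoglobin term and left-out libraries. On simulated counts for 13477 genes in the CKO against flox design, edgeR found 35 of the 100 genes set to a 2-fold difference, 99 of the 100 set to 4-fold, and 3 unchanged ones. DESeq2 found 42 and 99, and called 23 unchanged genes. Labels name no separate animals, so p-values measure the spread between libraries.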

Additional observations from a re-analysis of the deposited data

How the results depend on the processing

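Across 17 alternatives, 0 of the 10 genes was called under any, and 152 of 170 fold changes kept their direction. The other scalings and filters, the larger prior count and DESeq2 moved fold changes little and reversed none. Their values nearly repeat the main fit, and all 18 reversals came from the remaining alternatives. The count over all genes was 0 except with DESeq2 (23) and with haemoglobin status as a term (2, both lower in CKO). The simulated counts held genes set to differ, so the unchanged genes that DESeq2 called there cannot be set against these 23. Positive fold changes numbered 3 without CKO 2 and 8 without flox 3 or with the haemoglobin term, beside 6 of 10. Direction reversed for Gpnmb with limma-voom weights (0.20), the replicate block (0.39), shared codes summed (0.17) or linked as a random block (0.43) and the haemoglobin term (0.66), and with each library left out its range was -0.54 to 0.87 (0.87 without flox 3, 0.04 without CKO 1, 0.05 without CKO 3). Spp1 reversed with the haemoglobin term (0.14) and without flox 3 (0.48; range -1.08 to 0.48), and Cst7 with limma-voom weights, at -0.0279, without flox 1 (-0.35) and without CKO 1 (-0.41; range -0.41 to 0.62). With 1 library left out Trem2 ranged from -0.04 to 0.37, Lgals3 from -0.07 to 0.74 (-0.02 without flox 2) and Cd63 from -0.07 to 0.45 (-0.03 without flox 1). Without CKO 2 Trem2 was at -0.0449, Lgals3 at -0.0711 and Cd63 at -0.0670. The causes were not tested.

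The numbers in the titles were not taken as pairs of libraries. Deviations of same-numbered libraries correlated at -0.32, 0.01 and -0.33 over genes. Each such pair sets a haemoglobin-negative library against a haemoglobin-positive one, so these values cannot decide on pairing. The replicate block called 0 genes, as did the fit without it. At 3 against 3 libraries a 2-fold change is often missed, and 2 of the 4 codes stand for 2 libraries each, which limits precision. The lowest count of the 10 genes in any library was 318.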
